A study of Arabidopsis thaliana with 4 samples.

Results

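Leaves of wild-type Arabidopsis thaliana, accession Col-0, were compared between a library labelled R3 and a library labelled air, which are 2 of the 4 RNA sequencing libraries of the study. The comparison covered 17271 of the 31319 loci in the tables, those whose mean over both wild-type libraries was 1 RPKM or more (reads per kilobase of transcript, scaled to the depth of the library). The plants were 4 weeks old, and each sample pooled the leaves of 6 plants. The air plants served as the untreated group. The R3 plants had been under water in the dark for 24 h and were then returned to air. The sample label places their harvest at 3 h after submergence, whereas in the treatment protocol the harvests are 0 and 24 h after reoxygenation began, and the time in air is not settled. No library of plants kept in darkness in air was analysed here, so submergence, darkness, the return to air and the time of harvest cannot be told apart. The remaining libraries came from plants with the myc2-2 mutation, which affects a transcription factor of jasmonate signalling, in air and at R3. They share no library with the wild-type pair, and their own values are given beside it.

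A submerged shoot in the dark runs short of oxygen and of sugar, because gas diffuses slowly in water and photosynthesis stops. Re-exposure to air then brings a burst of reactive oxygen and loss of water. The leaf cell divides its protein synthesis among cytosol, plastid and mitochondrion, and most proteins of both organelles are nuclear-encoded and imported, so the transcript levels of each compartment can be read separately. Heat shock, photosynthesis and jasmonate genes, 358 loci in all, were set aside here so that other gene families and organelles could be described. A few of them also belong to a list described here and were kept in it.

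Each group had 1 library, so no test was possible and every difference below is a difference between 2 libraries, with no replicate check. A ratio is log2((R3 RPKM + 1)/(air RPKM + 1)), which understates the change of genes at low levels, and a gene is called 2-fold higher or lower at a ratio of at least 1 or at most -1. The libraries held an estimated 22.2 to 30.6 × 1000000 fragments, and counting error alone was 14.3 to 16.8% at 1 RPKM for a gene of median length. The 50 highest genes took 39.1% of the summed RPKM in WT air and 13.3% in WT R3, against 33.0% in myc2 air and 17.3% in myc2 R3. As deposited, 5398 genes were 2-fold higher in WT R3, 31.3% of those compared, and 1751 were 2-fold lower, 10.1%. After both libraries were rescaled by the median of gene ratios the split was 2972 higher, 17.3%, and 2911 lower, 16.9%, and the median ratio of all genes moved from 0.57 to 0.05. For this reason each list is described by its median less the median of all genes, called its relative median, or by its counts, which are as deposited unless said to be after rescaling. In the myc2 pair the corresponding percentages were 23.5% higher and 11.5% lower as deposited. Of 17097 genes compared in both pairs, 3682 were 2-fold higher in both and 1409 lower in both, while 12 were higher in WT and lower in myc2 and 2 were the reverse.

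The leaf origin of the libraries was checked with marker genes. The 4 leaf markers found, RBCS1A, CAB1, CAB3 and RCA, summed to 60416 RPKM in WT air and 6807 in WT R3, and the 5 seed markers to 0.114 and 0.411 RPKM, with 3 and 4 of them at 0. The 6 root markers summed to 7.42 RPKM in air and 95.4 in R3, with PYK10 at 2.91 and 62.8 RPKM, PHT1;1 listed at 0 and at 21.96 RPKM and SHR at 4.47 and 9.02 RPKM, while EXPA7 was at 0 in both. The 5 flower markers summed to 3.20 and 12.1 RPKM, but only PI was higher in R3, at 0.609 and 11.3. The others were lower, AP3 at 0.651 and 0.325, SEP3 at 1.36 and 0.351, AG at 0.199 and 0.0127, and AP1 at 0.378 and 0.0634. In bulk leaf RNA, fewer cells of a type and less RNA per cell cannot be told apart.

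Sorted by the location that the RefSeq annotation gives for each product, the plastid stood on the low side and the nucleolus, proteasome and endoplasmic reticulum on the high side. Of 2024 compared genes with a chloroplast or plastid product outside the set-aside lists, 641 (31.7%) were 2-fold lower in R3 and 345 (17.0%) higher, with a relative median of -0.79. Nucleolar products gave 92 of 166 (55.4%) higher and 5 lower, proteasome products 29 of 47 (61.7%) higher and 0 lower, and endoplasmic reticulum products 104 of 235 (44.3%) higher and 4 lower. Golgi genes were 2-fold higher in 48 of 106 cases and lower in 0, and plasma membrane genes in 592 and 41 of 1388. Mitochondrial genes, with 187 of 619 higher (30.2%) and 47 lower (7.59%), and vacuolar genes, with 123 higher and 27 lower of 374, were close to the background of all genes. Peroxisomal genes had 24 of 104 higher (23.1%), under the background, and 12 lower (11.5%). The relative medians of nucleolus and proteasome were 0.50 and 0.70, and in the myc2 pair those of plastid, nucleolus and proteasome were -0.61, 0.27 and 0.50.

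**Figure D1:**
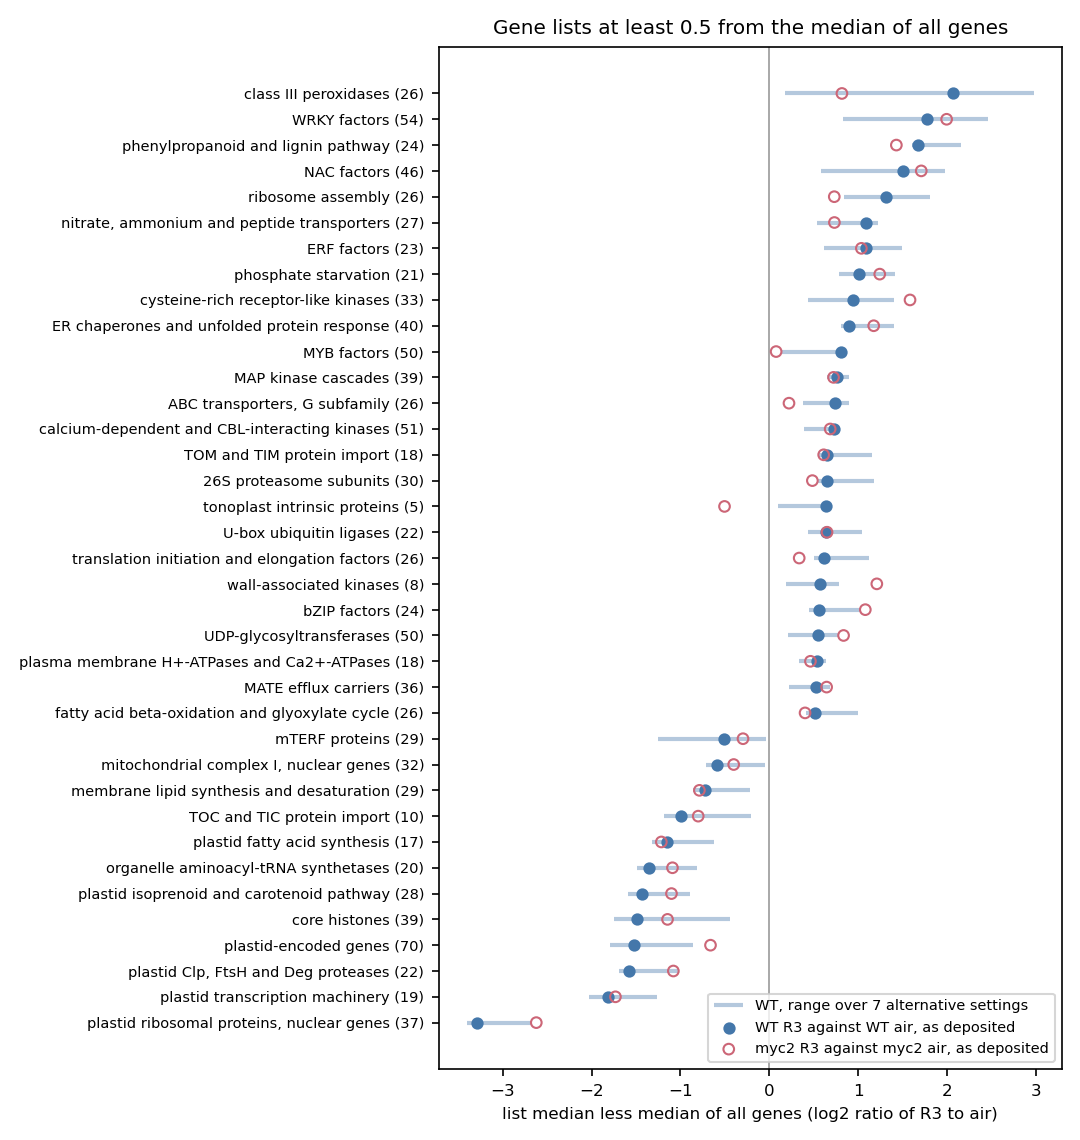
Gene lists whose median ratio lay at least 0.5 from the median of all genes. The x axis is the relative median on the log2 scale, filled points are the wild-type pair, open points the myc2 pair and bars the range of the wild-type value over the alternative settings; numbers in parentheses are genes compared. Plastid lists sit at the low end, led by plastid ribosomal proteins at -3.29, and class III peroxidases at the high end at 2.07.

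Plastid ribosomes, which translate the photosynthetic proteins encoded in the plastid, had the lowest relative median of the lists outside those set aside. Of 37 nuclear genes for plastid ribosomal proteins, 35 were 2-fold lower in R3 and 1 higher, and 36 were lower after rescaling, with a relative median of -3.29. Together they held 1.92% of the summed RPKM in air and 0.383% in R3. PRPL11, for the large subunit protein L11, was at 209 RPKM in air and 21.8 in R3, and RPL21C at 222 and 26.2. RPL9 was at 127 and 14.1 RPKM. AT5G24490, annotated as a 30S protein, had a ratio of -3.95, with 294 RPKM in air and 18.1 in R3. The exception was AT1G80620, at 6.81 RPKM in air and 17.2 in R3. In the myc2 pair 35 of 38 were lower, with a relative median of -2.62, and PRPL11 was at 179 and 24.7 RPKM.

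The plastid transcription machinery was lower as a group, although less so than the ribosome. Of 19 genes, 12 were 2-fold lower and 0 higher (16 lower after rescaling), with a relative median of -1.81 and -1.73 in the myc2 pair. PTAC16, a protein of the plastid chromosome, was at 607 RPKM in air and 73.6 in R3, and PTAC7, a subunit associated with the plastid RNA polymerase, at 105 and 16.5. FSD2, an iron superoxide dismutase of the same complex, was at 10.4 and 1.90 RPKM. Of 70 plastid-encoded loci compared, 34 were 2-fold lower and 0 higher, with ATCG00800 at 827 and 145 RPKM and ATCG00810 at 342 and 62.2. Their relative median was -1.52 in the wild type and -0.66 in the myc2 pair, where 15 were lower and 4 higher. The summed share went opposite ways in the 2 pairs. All 88 plastid-encoded loci listed held 4.46% of the summed RPKM in WT air and 3.11% in WT R3, but 3.97% in myc2 air and 7.47% in myc2 R3.

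Plastid protein turnover and metabolism followed the same direction with smaller sizes. Among Clp, FtsH and Deg proteases, which degrade plastid proteins, 11 of 22 were 2-fold lower and 1 higher, with a relative median of -1.58. Without 2 genes shared with the set-aside lists the counts were 11 and 1 of 20. DEG8, a protease of the thylakoid lumen, was at 33.7 RPKM in air and 8.12 in R3. The member that was higher was ERD1, a Clp ATPase, at 40.1 and 155 RPKM. In the isoprenoid and carotenoid pathway 10 of 28 were lower and 3 higher. NCED4, a carotenoid cleavage enzyme, was at 93.5 and 15.3 RPKM, and DXR, an early enzyme of the plastid isoprenoid pathway, at 53.0 and 11.9. The carotene hydroxylase BETA-OHASE 2 was at 2.37 and 19.9 RPKM, against the direction of its list. Plastid fatty acid synthesis had 5 of 17 lower and 0 higher, with the acyl carrier protein ACP4 at 361 and 61.3 RPKM, and the plastid desaturase FAD6 was at 157 and 37.8. Relative medians of these lists were -1.44 for isoprenoids, -1.15 for fatty acid synthesis and -0.73 for membrane lipids.

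Protein import into the plastid was also on the low side. Of 10 TOC and TIC genes, 2 were 2-fold lower and 0 higher (5 and 0 after rescaling), with a relative median of -0.99, and 8 of 10 lay below the median of all genes. In the myc2 pair the relative median was -0.80. TOC159, the main import receptor, was at 73.1 RPKM in air and 51.1 in R3, and the import channel TOC75-III at 33.2 and 26.1. TIC21, of the inner envelope, was at 56.2 and 18.1 RPKM. Aminoacyl-tRNA synthetases annotated to organelles, which charge the tRNAs of plastid or mitochondrion or both, had 6 of 20 lower and 3 higher, with a relative median of -1.35. OVA4 was at 17.2 and 4.93 RPKM and OVA6 at 22.3 and 8.25. Pentatricopeptide repeat proteins, which bind organelle RNA, had a relative median of -0.48 with 15 of 165 lower and 18 higher, near or under the background in both directions.

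**Figure D2:**
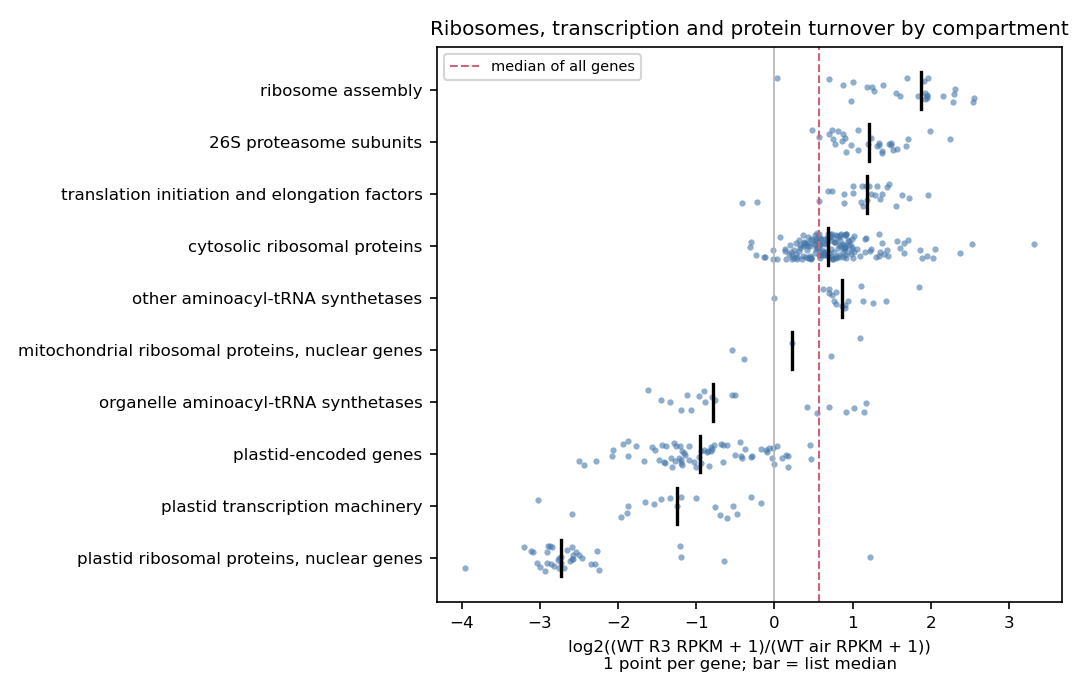
Ratios of single genes for ribosomes, transcription, tRNA charging and protein turnover by compartment. The x axis is the log2 ratio of WT R3 to WT air, each point is a gene, black bars are list medians and the dashed line is the median of all genes; nearly all plastid ribosomal proteins lie below -1 while ribosome assembly lies mostly above 1.

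The nucleolus, where cytosolic ribosomes are assembled, moved opposite to the plastid ribosome. Of 26 ribosome assembly genes compared, 22 were 2-fold higher in R3 and 0 lower (17 higher after rescaling), with a relative median of 1.31. Their share of RPKM was 0.0398% in air and 0.190% in R3. The promoters of a pair of these genes are shown because motifs known from ribosome genes occur in them. They are the 250 bases before the annotated start, from RefSeq TAIR10.1, written 5′ to 3′ along the gene's strand, with the site II element (TGGGCC) and the telo-box (AAACCCTA), on either strand, in capitals.
FZF (chr2:10402935-10403184, minus strand): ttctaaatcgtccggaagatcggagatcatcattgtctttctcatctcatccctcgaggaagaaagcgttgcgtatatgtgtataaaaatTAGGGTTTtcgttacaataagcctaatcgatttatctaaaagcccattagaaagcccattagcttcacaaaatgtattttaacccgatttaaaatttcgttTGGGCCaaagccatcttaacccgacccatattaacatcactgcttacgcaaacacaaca
FIB1 (chr5:21293897-21294146, plus strand): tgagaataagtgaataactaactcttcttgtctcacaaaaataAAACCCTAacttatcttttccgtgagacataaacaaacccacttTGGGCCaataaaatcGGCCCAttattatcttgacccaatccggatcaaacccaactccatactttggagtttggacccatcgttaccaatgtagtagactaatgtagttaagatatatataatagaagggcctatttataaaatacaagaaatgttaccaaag

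FZF, a zinc-finger protein related to yeast Rei1, which acts in large subunit maturation, was at 11.4 RPKM in air and 71.7 in R3. FIB1, a fibrillarin that methylates ribosomal RNA, was at 31.3 and 121 RPKM, and FIB2 at 6.95 and 45.1. The nucleostemin-like GTPase NSN1 was at 9.19 and 49.3 RPKM, the RNA-binding protein PUM24 at 2.67 and 17.0, and the methyltransferase RID2 at 3.19 and 19.5. A site II element occurred in 11 of 26 assembly promoters (42.3%) and in 93 of 170 cytosolic ribosomal protein promoters (54.7%), against 17.2% of the 17161 promoters of compared genes. The telo-box occurred in 15.4% and 18.2% of these lists and in 3.58% of all promoters. Site II elements also occurred in 44.4% of TOM and TIM, 42.1% of cytochrome bc1 and oxidase, 38.5% of core histone and 33.3% of proteasome promoters. Plastid ribosomal protein, ER chaperone and organelle tRNA synthetase promoters had 24.3%, 20% and 5%. Median ratios with and without the element were 1.95 and 1.61 for assembly genes and 0.63 and 0.75 for cytosolic ribosomal proteins. The motifs were chosen after the values were seen, and a match is a description of the letters in the window. In the myc2 pair 14 of 25 assembly genes were 2-fold higher and 0 lower, with a relative median of 0.73.

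Cytosolic ribosomal proteins themselves lay near the median of all genes. Of 170 compared, 31 (18.2%) were 2-fold higher and 0 lower, under the background for higher genes, with a relative median of 0.11 and -0.21 in the myc2 pair. An outlying member was SAG24, a form of ribosomal protein L10, at 56.6 RPKM in WT air and 572 in WT R3, and at 85.8 and 752 in the myc2 libraries. Translation initiation and elongation factors stood higher as deposited, with 19 of 26 above 2-fold and 0 below and a relative median of 0.61. After rescaling 4 were above 2-fold and 0 below, no more often above than the rescaled background of 17.3%. The cap-binding protein EIF4E was at 20.5 and 70.2 RPKM, the RNA helicase EIF4A-2 at 33.8 and 107, and ELF5A-3, a form of eIF5A, at 50.1 and 198. The 26S proteasome, which degrades ubiquitinated proteins, had 18 of 30 subunits 2-fold higher and 0 lower, with 29 of 30 above the median of all genes. After rescaling 5 subunits were higher and 0 lower, again no more often higher than the rescaled background. The proteasome ATPase RPT3 was at 30.1 and 146 RPKM, and the core subunit gene AT2G05840 at 26.4 and 86.8. The relative median of the proteasome was 0.65 in the wild type and 0.49 in the myc2 pair.

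The endoplasmic reticulum folds secreted proteins, and an excess of unfolded protein there induces chaperones through bZIP factors. Of 40 chaperone and unfolded protein response genes compared, 29 were 2-fold higher in R3 and 0 lower (18 after rescaling), with a relative median of 0.89. The list shares 5 of these genes with the set-aside lists, and without them 24 of 35 were higher and 0 lower, with a relative median of 0.81. The share of RPKM in this list was 0.0915% in air and 0.385% in R3. Promoters of a pair of members are shown because they carry the ER stress element, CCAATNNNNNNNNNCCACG, which here shares bases with a G-box, CACGTG. They are again the 250 bases before the start in TAIR10.1, with both motifs, on either strand, in capitals.
BI1 (chr5:19135702-19135951, plus strand): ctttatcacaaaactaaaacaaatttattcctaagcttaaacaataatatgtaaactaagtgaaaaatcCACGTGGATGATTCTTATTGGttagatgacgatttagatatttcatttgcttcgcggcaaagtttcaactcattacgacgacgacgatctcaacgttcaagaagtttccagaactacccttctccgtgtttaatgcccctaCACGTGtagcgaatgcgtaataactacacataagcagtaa
P58IPK (chr5:749851-750100, plus strand): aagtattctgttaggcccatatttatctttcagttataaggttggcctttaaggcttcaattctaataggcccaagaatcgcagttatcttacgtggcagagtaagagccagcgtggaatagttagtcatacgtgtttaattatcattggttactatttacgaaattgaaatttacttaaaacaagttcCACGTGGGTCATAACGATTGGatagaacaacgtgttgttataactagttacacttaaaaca

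BI1, an ER membrane protein that suppresses cell death, was at 19.7 RPKM in air and 172 in R3. P58IPK, a DnaJ co-chaperone of the ER lumen, was at 5.395 and 30.1 RPKM. BZIP60, a transcription factor of the unfolded protein response, was at 16.7 and 131 RPKM. The chaperone BIP3 was at 0.835 and 19.8 RPKM, and the disulfide isomerase PDIL1-3 at 2.92 and 26.02. In this list 25 genes were 2-fold higher in both pairs, with BI1 at 25.9 and 242 RPKM and BZIP60 at 19.8 and 175 in the mutant, and the myc2 relative median was 1.18 with 26 of 41 higher. The ER stress element occurred in 5 of 40 promoters of the list (12.5%) and in 0.385% of all promoters, and the G-box in 27.5% and 7.41%.

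Genes for secretion beyond the ER were as deposited higher more often, and lower less often, than the background. Among Rab GTPases and SNAREs, which direct vesicles, 36 of 88 (40.9%) were 2-fold higher and 2 lower, with a relative median of 0.30; after rescaling 15 were higher, near the background, and 4 lower. The plasma membrane SNAREs SYP121 and SYP122 were at 8.54 and 10.2 RPKM in air and at 59.0 and 95.5 in R3. Exocyst EXO70 subunits, which tether vesicles, had 7 of 17 higher and 0 lower (6 and 0 after rescaling), with EXO70H1 at 0.0333 and 9.20 RPKM and EXO70B2 at 4.53 and 35.4.

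Mitochondrial genes divided by function. Complex I, the entry point of electrons from NADH, had 0 of 32 nuclear genes 2-fold higher and 1 lower, with a relative median of -0.59, and 29 of 32 lay below the median of all genes. The cytochrome bc1 and cytochrome c oxidase list had 16 of 38 higher and 0 lower as deposited but 6 higher and 1 lower after rescaling, under the rescaled background, with a relative median of 0.23. Cytochrome c gene CYTC-2 was at 11.5 RPKM in air and 58.7 in R3, and the AAA ATPase gene BCS1 at 3.18 and 43.1. ATP synthase had 2 of 10 (20%) and succinate dehydrogenase 3 of 11 (27.3%) higher, under the 31.3% of all genes, and 0 lower in each. After rescaling 0 and 1 were higher, and the relative medians were -0.29 and -0.072. Succinate dehydrogenase flavoprotein gene SDH1-1 was at 17.8 and 81.1 RPKM.

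Import into mitochondria stood higher than import into plastids. Of 18 TOM and TIM genes, 12 were 2-fold higher and 1 lower (4 and 1 after rescaling), with a relative median of 0.65. TIM13, a small chaperone of the space between the membranes, was at 23.9 and 86.4 RPKM, and the outer membrane subunit TOM7-2 at 1.76 and 14.6. Mitochondrial carriers as a family had a relative median of 0.05, but several members were far above it. The dicarboxylate carriers UCP5 and DIC2 were at 9.59 and 4.74 RPKM in air and at 141 and 32.0 in R3. AAC2, an ADP/ATP carrier, was at 6.93 and 66.5 RPKM. Of 122 mitochondrion-encoded loci, 25 passed the filter, of which 3 were 2-fold higher in the wild type and 0 lower, and 10 of 27 were higher in the myc2 pair. ATMG00650 was at 4.29 and 15.6 RPKM in the wild type and at 4.44 and 28.4 in the mutant.

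In the tricarboxylic acid cycle 9 of 18 genes were 2-fold higher and 2 lower (2 and 3 after rescaling). Among those with the largest ratios were isocitrate dehydrogenase subunits, IDH-V at 22.7 and 72.5 RPKM and IDH2 at 11.3 and 35.1. The isoforms of dihydrolipoyl dehydrogenase, shared by pyruvate dehydrogenase and glycine decarboxylase, went opposite ways, mtLPD1 at 304 and 59.7 RPKM and mtLPD2 at 26.9 and 81.1. FUM2, a cytosolic fumarase, was at 37.5 and 8.36 RPKM.

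Peroxisomes, which oxidise fatty acids and carry out part of photorespiration, showed both directions. Of 26 genes of beta-oxidation and the glyoxylate cycle, 15 were 2-fold higher and 2 lower (7 and 2 after rescaling), with a relative median of 0.51. The acyl-CoA oxidase ACX1, which also acts in jasmonate synthesis, was at 17.1 RPKM in air and 167 in R3. PCK1, the cytosolic enzyme that leads from the glyoxylate cycle to sugar, was at 34.1 and 349 RPKM, and the peroxisomal ATP carrier PNC2 at 3.92 and 32.2. Isocitrate lyase, ICL, was at 0.0194 and 5.29 RPKM. The malate dehydrogenase PMDH2, at 776 RPKM in air, was at 105 in R3, and the thiolase KAT5 at 15.5 and 5.70. Peroxins, which build the organelle, lay at the median of all genes, with PEX13 at 40.2 and 114 RPKM, PEX19-1 at 5.04 and 19.0, and the division factor PEX11D at 110 and 51.5.

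In nitrogen assimilation the leading genes differed by compartment. GS2, the plastid glutamine synthetase, was at 667 RPKM in air and 60.4 in R3, the plastid glutamate synthase GLU1 at 137 and 26.9, and the plastid nitrite reductase NIR1 at 69.5 and 20.3. Among the cytosolic glutamine synthetases, GSR 1 was at 39.2 and 350 RPKM and GLN1.3 at 10.9 and 57.6. GSR2, also cytosolic and named here after its values were seen, was within 2-fold as deposited, at 208 RPKM in air and 141 in R3. ASP2, a cytosolic aspartate aminotransferase, was at 12.9 and 115 RPKM. Over the list, 11 of 25 were 2-fold higher and 4 lower, with a relative median of 0.24. The mutant libraries lay in the same directions, with GS2 at 511 and 68.7 RPKM and GSR 1 at 45.3 and 445.

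Amino acid breakdown had 7 of 20 genes higher (35%) and 2 lower (10%), near the 31.3% and 10.1% of all genes, with a relative median of -0.12. The glutamate dehydrogenase genes went opposite ways, GDH2 at 29.1 and 180 RPKM and GDH1 at 25.2 and 11.7. MGL, methionine gamma-lyase, was at 4.13 and 39.6 RPKM, the aminotransferase TAT7 at 7.46 and 59.5, and BCAT-2, of branched-chain amino acid breakdown, at 1.52 and 15.5. In polyamine metabolism ADC2, an arginine decarboxylase, was at 140 and 397 RPKM and SPDS3 at 5.16 and 58.2. In that list 4 of 16 were higher (25%), under the 31.3% of all genes, and 0 lower, with a relative median of -0.28.

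**Figure D3:**
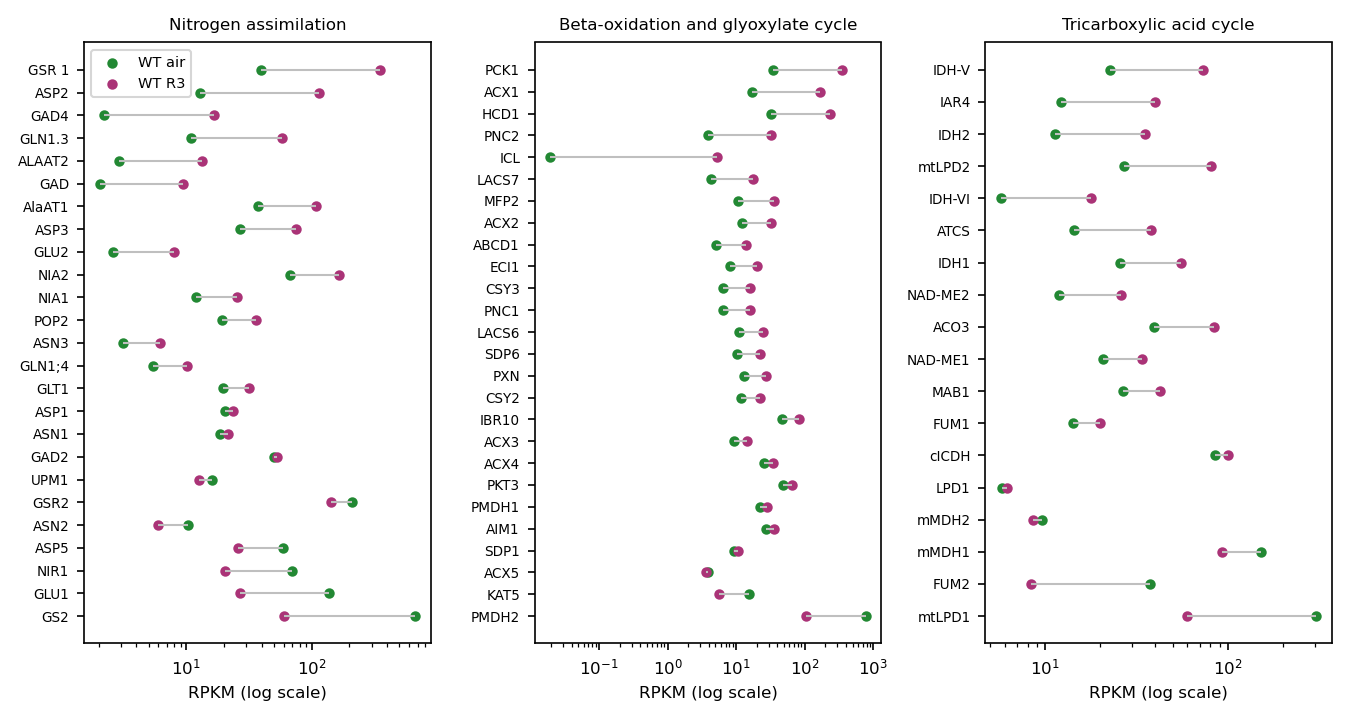
Levels of every compared gene of nitrogen assimilation, of beta-oxidation and the glyoxylate cycle, and of the tricarboxylic acid cycle. The x axes are RPKM on log scales, green points are WT air and purple points WT R3, joined by a line; GS2, PMDH2 and mtLPD1 have the lowest ratios of their lists and GSR 1 and PCK1 the highest of the first 2.

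Core histones, which package new DNA and are made chiefly in dividing cells, were lower as a group. Of 39 compared, 19 were 2-fold lower in R3 and 2 higher (23 and 0 after rescaling), with a relative median of -1.49 and -1.15 in the myc2 pair. Promoters of 2 members are shown because they carry the histone octamer, CGCGGATC on either strand, printed in capitals in the same 250-base windows of TAIR10.1.
HTA6 (chr5:24116221-24116470, minus strand): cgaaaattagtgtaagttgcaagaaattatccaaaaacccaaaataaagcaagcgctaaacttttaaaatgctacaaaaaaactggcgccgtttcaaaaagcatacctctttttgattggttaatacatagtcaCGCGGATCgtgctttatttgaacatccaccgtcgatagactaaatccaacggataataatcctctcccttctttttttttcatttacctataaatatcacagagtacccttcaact
AT5G65360 (chr5:26120582-26120831, minus strand): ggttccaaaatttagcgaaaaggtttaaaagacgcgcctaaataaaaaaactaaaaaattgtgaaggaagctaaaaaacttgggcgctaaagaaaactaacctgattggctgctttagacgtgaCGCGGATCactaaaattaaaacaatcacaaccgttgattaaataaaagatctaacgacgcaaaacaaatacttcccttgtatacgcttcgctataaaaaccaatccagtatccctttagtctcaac

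HTA6, a histone H2A, was at 67.3 RPKM in air and 11.0 in R3, and at 110 and 12.5 in the myc2 libraries. AT5G65360 was at 97.3 and 31.2 RPKM, AT1G09200 at 104 and 19.6, and HTA11, also an H2A, at 12.2 and 1.56. The members that were higher were AT3G09480, at 2.196 and 7.54 RPKM, and AT3G53650, at 6.90 and 16.1. The octamer occurred in 9 of 39 histone promoters (23.1%) and in 29 of all 17161 (0.169%). Markers of dividing cells summed to 11.2 RPKM in WT air and 1.27 in WT R3, with the cytokinesis SNARE KNOLLE, listed also as SYP111, at 9.03 and 0.563, and their part in the histone values was not tested. Tubulins and actins were near the median of all genes, with TUB5 at 65.8 and 11.1 RPKM and ACT7 at 99.9 and 305.

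**Figure D4:**
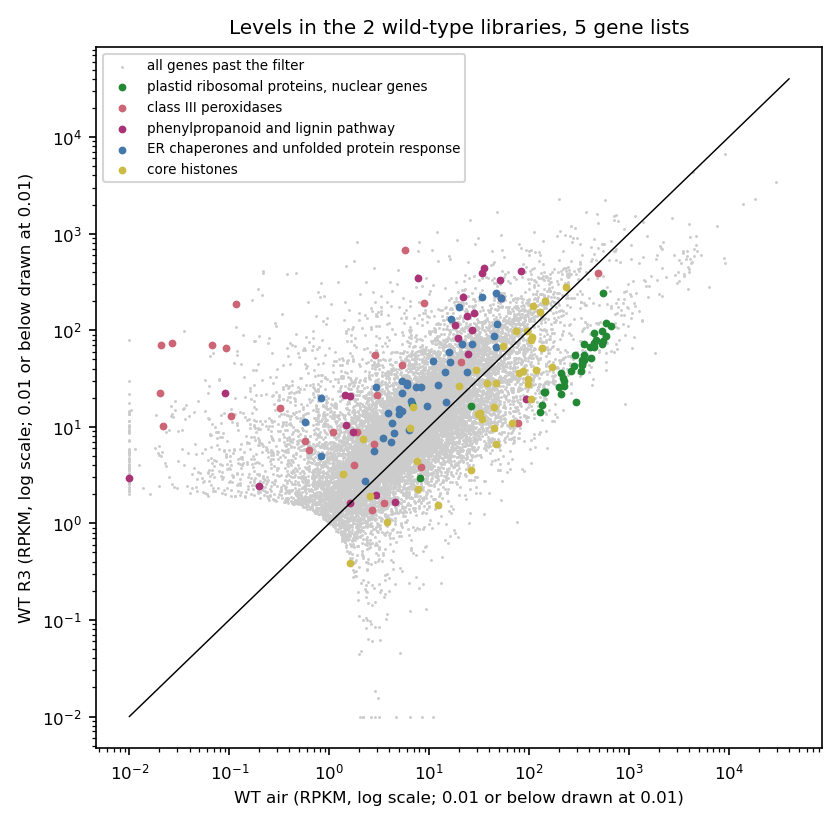
Level of each compared gene in WT air (x axis) and WT R3 (y axis), RPKM on log scales, with 5 gene lists in colour and the line of equal level. Plastid ribosomal proteins and histones lie mostly below the line and phenylpropanoid, peroxidase and ER genes mostly above it.

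The cell wall held both the highest list and many genes that were lower. Class III peroxidases, secreted enzymes that use hydrogen peroxide in the wall, had 20 of 26 genes 2-fold higher and 1 lower (18 and 4 after rescaling), with a relative median of 2.07. That median ranged from 0.18 to 2.98 over the alternative settings and was 0.82 in the myc2 pair. AT5G64120 was at 5.67 RPKM in air and 681 in R3, and its neighbours AT5G64110 and AT5G64100, on the same stretch of chromosome 5, at 0.105 and 12.9 and at 0.115 and 185. PER4 and the adjacent AT1G14550 were at 0.0209 and 70.0 RPKM and at 0.0264 and 74.0. In all, 67 peroxidase loci were listed, and those near 0 in air passed the filter only if high in R3. PER4, AT1G14550, AT5G64110 and AT5G64100 were such genes, so the filter itself favoured a higher count and median. The exception, AT1G71695, was at 78.2 and 10.9 RPKM.

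The phenylpropanoid pathway, which supplies lignin, had 20 of 24 genes 2-fold higher and 2 lower (19 and 2 after rescaling), with a relative median of 1.68 and 1.43 in the myc2 pair. Entry enzymes PAL1 and C4H were at 21.8 and 35.5 RPKM in air and at 223 and 438 in R3. The cinnamyl alcohol dehydrogenase CAD5 was at 7.65 and 344 RPKM and the methyltransferase OMT1 at 33.7 and 395. SNG1, which makes sinapoylmalate, a leaf sunscreen, was at 93.4 and 19.5 RPKM. The list took 0.0856% of RPKM in air and 0.588% in R3.

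Enzymes that loosen or remodel the wall had members in both directions in each family, beside 31.3% of all genes higher and 10.1% lower. Expansins had 6 of 16 (37.5%) 2-fold higher and 3 lower (18.8%), with EXPA16 at 1.67 and 54.1 RPKM and EXPA8 at 61.9 and 4.24. Xyloglucan endotransglucosylases had 10 of 20 higher and 2 lower, with XTH18 at 0.690 and 26.1 RPKM and XTH6 at 121 and 24.3. Pectin enzymes had 19 of 71 higher (26.8%) and 8 lower (11.3%), near the shares of all genes. Within them AT2G45220 was at 0.768 and 247 RPKM and PME5, a pectin methylesterase, at 18.0 and 0.787. Of the arabinogalactan proteins, 17 of 39 were higher (43.6%) and 4 lower (10.3%), and AGP12 was at 113 and 1051 RPKM. These 4 families had lower relative medians in the myc2 pair, from -1.34 for expansins to -0.26 for pectin enzymes, against -0.17 to 0.16 in the wild type, a difference that was not tested.

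Transporters of nitrogen and genes of phosphate supply stood high in WT R3. Of 27 nitrate, ammonium and peptide transporters, 17 were 2-fold higher and 1 lower (15 and 3 after rescaling), with a relative median of 1.09. WR3, the partner protein of high-affinity nitrate transporters, was at 1.48 RPKM in air and 98.0 in R3, and the nitrate transporter NRT2.5 at 0.376 and 14.4. AMT2, an ammonium transporter, was at 4.46 and 38.7 RPKM. Phosphate starvation genes had 15 of 21 higher and 0 lower (12 and 1 after rescaling), with a relative median of 1.01. RNS1, a secreted ribonuclease, was at 1.23 and 318 RPKM, GPT2, a plastid glucose phosphate translocator, at 0.425 and 26.8, and the phosphate transporter PHT1;4 at 0.251 and 10.1. The sum of root markers was higher in the same library, as given above, and the part of root markers in these values was not tested. Of these markers, PHT1;1 and NRT2.1 are themselves a phosphate and a nitrate transporter, with NRT2.1 at 0.0164 and 1.42 RPKM. IRT1 was at 0.0215 and 0.227 RPKM and EXPA7 at 0 in both.

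Sugar transporters had 11 of 26 genes higher and 1 lower, with a relative median of -0.23. The hexose carrier MSS1 was at 7.48 and 120 RPKM, the sucrose carrier SUC1 at 24.5 and 228, and the polyol carrier PMT5 at 13.9 and 127. Amino acid transporters, with 14 of 47 higher (29.8%) and 5 lower (10.6%), were near the 31.3% and 10.1% of all genes. LHT1, which takes up amino acids into cells, was at 1.73 and 108 RPKM, while AAP2 was at 34.5 and 9.45. ABCG transporters, which export lipids and hormones, had 16 of 26 higher and 0 lower, with ABCG40, an importer of abscisic acid, at 0.778 and 27.8 RPKM. The proton pump HA2 was at 23.8 and 157 RPKM.

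The vacuole showed few shifts in its proton pumps, of which 3 of 20 were higher and 0 lower, and more in its water channels. GAMMA-TIP, an aquaporin of the tonoplast, was at 372 RPKM in air and 1657 in R3, and at 467 and 1104 in the mutant. DELTA-TIP was at 417 and 526 RPKM in the wild type but at 645 and 311 in the mutant. TIP2 was at 1055 and 764 RPKM, and the 5 compared members had relative medians of 0.64 in the wild type and, over 4, -0.50 in the mutant. Iron genes had 10 of 35 higher (28.6%) and 4 lower (11.4%), near the 31.3% and 10.1% of all genes. The ferric reductases FRO6 and FRO7, with FRO7 in the chloroplast, were at 116 and 56.2 RPKM in air and at 6.17 and 8.83 in R3, while FER1, a ferritin that stores iron, was at 44.6 and 204.

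Among genes past the filter, several transcription factor families moved almost entirely in a single direction. Of 54 WRKY factors, 45 (83.3%) were 2-fold higher and 0 lower (38 after rescaling). Of 46 NAC factors, 41 (89.1%) were higher and 0 lower (29 after rescaling). Median ratios were 2.34 and 2.07, against 0.57 for all genes. Relative medians ran from 0.83 to 2.46 (WRKY) and from 0.58 to 1.98 (NAC) over the alternative settings. In all, 71 WRKY and 97 NAC loci were listed, and those near 0 in air passed the filter only if high in R3. WRKY46 was at 1.36 and 51.9 RPKM and NAC032 at 4.29 and 104. ERF factors had 18 of 23 higher and 0 lower, with ERF71, of the group linked to low oxygen, at 0.490 and 23.7 RPKM. MYB factors, with 27 of 50 higher (54%) and 2 lower (4%), beside 31.3% and 10.1% of all genes, were more varied. The filter limit holds for them too, with 119 loci listed, and ERF71 and MYB15 passed it only through R3. The MYB relative median was 0.80 as deposited, ran from 0.15 to 0.78 over the alternative settings and was 0.077 in the myc2 pair. MYB15 was at 0.508 and 31.8 RPKM, whereas MYB29 and MYB76, regulators of aliphatic glucosinolates, were at 11.9 and 2.70 RPKM in air and at 3.43 and 0.144 in R3.

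Light-linked and growth-linked families were mixed, beside 31.3% of all genes higher and 10.1% lower. BBX zinc fingers had 7 of 26 genes higher and 5 lower, with BBX31 at 5.07 and 52.5 RPKM and BBX27 at 20.3 and 2.37. TCP factors, which control leaf growth, had 4 of 19 higher and 3 lower. Among bZIP factors, 12 of 24 were higher and 2 lower, and the light-response factors HY5 and HYH were at 5.33 and 10.03 RPKM in air and at 33.5 and 93.3 in R3. The homeobox factor HB-12 was at 9.11 and 149 RPKM. Hormone genes of gibberellin, brassinosteroid and cytokinin had 11 of 53 higher and 7 lower, with GA2OX6, which inactivates gibberellin, at 0.185 and 38.6 RPKM and the cytokinin response regulator RR16 at 16.5 and 1.51.

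Receptors and kinases differed by family. Cysteine-rich receptor-like kinases had 23 of 33 2-fold higher and 1 lower (17 and 2 after rescaling), with a relative median of 0.94 and 1.58 in the myc2 pair. CRK36 was at 0.919 and 15.5 RPKM and CRK4, the exception, at 24.3 and 5.94. Leucine-rich repeat kinases as a family were below the median of all genes, at -0.37, with 31 of 116 higher and 7 lower. Within them a run of neighbouring kinase genes on chromosome 1 held several that were higher. Of 15 loci from AT1G51790 to AT1G51910, 7 passed the filter and 6 of these were 2-fold higher, including IOS1 at 0.242 and 73.2 RPKM, AT1G51890 at 0.416 and 22.6 and AT1G51850 at 0.0261 and 12.9. Those 6 were at 0.416 RPKM or less in WT air and passed the filter only through R3, so the filter itself favoured a higher count. The seventh, AT1G51805, was at 20.8 and 11.7 RPKM, and this run was chosen after its values were seen.

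Intracellular signalling families differed in how often their genes were higher. MAP kinase cascades had 22 of 39 2-fold higher and 0 lower (13 after rescaling), with MAPKKK18, of abscisic acid signalling, at 0.269 and 20.8 RPKM and MPK11 at 0.467 and 14.4. Calcium-dependent and CBL-interacting kinases had 32 of 51 higher and 3 lower, with CIPK20 at 28.1 and 2.81 RPKM as the lowest ratio. SnRK1 and SnRK2 kinases, which act in energy and osmotic stress signalling, had 1 of 12 higher and 0 lower, with KIN10, a catalytic subunit of SnRK1, at 10.2 and 14.5 RPKM and OST1 at 3.60 and 10.6. U-box ubiquitin ligases had 12 of 22 higher and 0 lower, with PUB22 at 0.916 and 32.4 RPKM, and ATL RING ubiquitin ligases had 3 of 10 higher (30.0%) and 0 lower with a relative median of -0.23. NLR immune receptors were under the background, with 22 of 98 higher (22.4%) and 3 lower. Among signalling peptides 11 of 23 were higher and 1 lower, with the danger peptide precursor PROPEP3 at 0.211 and 30.4 RPKM, PSK4, a phytosulfokine precursor, at 10.3 and 157, and STOMAGEN, which promotes stomata, at 25.1 and 4.03.

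Outside the set-aside lists, among genes averaging 5 RPKM or more, the highest ratio was that of UPI, a protease inhibitor, at 0.218 RPKM in air and 394 in R3. AZI1, a lipid-transfer-like protein of systemic immunity, was at 1.46 and 467 RPKM. AZI1 lies in a run of related genes on chromosome 4 in which all 5 compared were 2-fold higher, although AT4G12490 and AT4G12520 share sequence with their relatives. Among them were EARLI1, at 9.99 and 238 RPKM, and AT4G12500, at 0.836 and 309. AT4G12500 and AT4G12520, the latter at 0.150 RPKM in air, passed the filter only through R3. Chitinase family gene AT2G43620 was at 1.77 and 515 RPKM, and the transcription factor RAP2.6 at 0.170 and 205. RAP2.6 was listed at 0 in myc2 air and at 60.3 RPKM in myc2 R3. UCC2, a copper-binding uclacyanin, was at 0.610 and 196 RPKM.

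At the low end, MES18, a methyl esterase, was at 76.0 RPKM in air and 1.02 in R3. IPMI2, an isopropylmalate isomerase subunit, and CYP79F1, which starts aliphatic glucosinolate synthesis, were at 103 and 84.7 RPKM in air and at 4.17 and 3.69 in R3. RbcX1, a chaperonin-like protein of Rubisco assembly, was at 35.6 and 1.24 RPKM. GER3, a germin, was at 594 and 38.4 RPKM. AT1G76960, which the annotation leaves uncharacterized, was at 52.3 and 1.73 RPKM in the wild type and at 93.9 and 19.4 in the mutant.

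Values are less certain for genes that overlap another annotated gene on the opposite strand, since the strand setting of the counting is not given in the sources used here. Among the genes named, these are SYP111, BCAT-2, MGL, TIC21, IDH2, OVA4, PEX13, DELTA-TIP, TOC75-III, TOC159, RbcX1, FER1, P58IPK, GLU1, GDH1, PTAC7, AT5G24490, KAT5, BETA-OHASE 2, SPDS3, MES18 and DXR. Others share at least 10% of their 50-base words with another locus, so that reads could be split between copies, and these are SYP111, OVA4, TOC159, RbcX1, PTAC7, PHT1;1, FRO6, FRO7 and MES18.

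**Figure D5:**
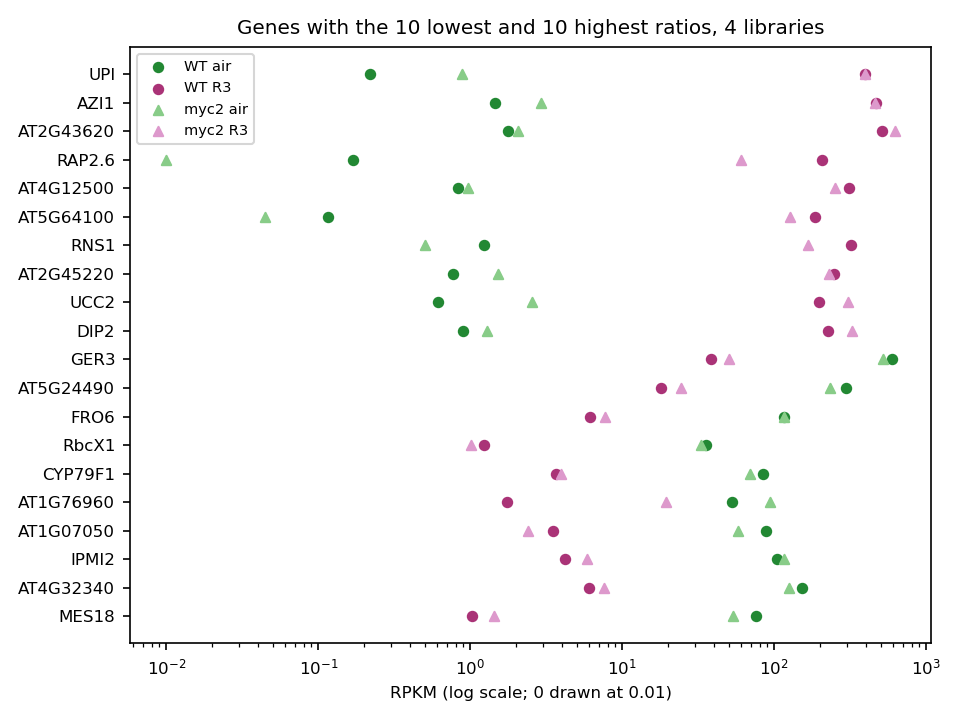
RPKM, on a log scale, of the genes with the 10 lowest and the 10 highest ratios in the wild type, in all 4 libraries; circles are WT, triangles myc2, green air and purple R3. In each of these genes the myc2 libraries lie on the same sides as the wild-type libraries.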

How the data were processed

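Leaf RNA was sequenced in 4 libraries, 1 per group, grouped by sample title. The deposited tables hold RPKM per locus, and the column of WT R3 is headed FPKM per the file headers although the file is named as RPKM; both were read as the same kind of value, normalised by the authors for transcript length and library size. TopHat, Cufflinks and the TAIR10 build are named in the submitters' processing notes, with no versions. Depth was estimated from what a single fragment is worth among low genes, at 22.2 to 30.6 × 1000000 fragments.

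Ratios were computed in Python 3.11.15 with pandas 2.3.3, NumPy 2.4.6 and matplotlib 3.10.9 as log2(value + 1), for genes averaging 1 RPKM or more over the pair, on the deposited scale; lists were read relative to the median of all genes. Scripts were tested on simulated data. Of 31319 loci, 30622 matched RefSeq TAIR10.1 by locus tag; 92 names on the lists matched no locus, 15 matched several and were left out, and the leaf marker GLO1 matched none. The 210 organelle loci were not paired with names and appear by identifier. The 79 lists and the comparison were chosen with earlier results of these data known, and several lists were corrected with values in view.

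Named genes are, for lists of 12 or fewer compared members, any member; for longer lists, up to 5 with the largest ratios in the leading direction and up to 3 in the other; the 10 highest and 10 lowest ratios among genes at a mean of 5 RPKM outside the set-aside lists; and genes whose promoters are printed. GSR2, genes near IOS1, AZI1 and AT5G64100 and the marker genes fall outside this rule. Promoters are the 250 bases before the RefSeq start, searched on both strands.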

Additional observations from a re-analysis of the deposited data

Results flagged for a closer look

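FLA12, a fasciclin-like arabinogalactan protein of the cell wall, differed in direction between the genotypes. It was at 2.32 RPKM in WT air and 21.5 in WT R3, a log2 ratio of 2.76, and at 14.5 RPKM in myc2 air and 4.96 in myc2 R3. With 1 library per group the difference between the genotypes was not tested.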

How the results depend on the processing

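Against 5398 genes 2-fold higher and 1751 lower, the counts were 3157 and 1134 with a pseudocount of 5, and 2972 and 2911 after rescaling by the median of ratios; the other settings kept both counts within 1.5 times. The median ratio of all genes, 0.57, was 0.34 with a pseudocount of 5, 0.032 with no filter, 0.67 with a filter at 5 RPKM, 0.050 after rescaling by the median of ratios, 0.80 after rescaling to a sum of 1000000 and 0.34 after rescaling without the 50 highest genes. The shifts with rescaling follow from the construction, since 1 library is multiplied against the other. Of the 79 lists, the 37 with a relative median at least 0.5 from that of all genes kept its sign under every setting, and of the rest up to 19 changed sign, with no filter. Because a relative median subtracts the median of all genes, rescaling largely cancels in it. The rescaled settings could therefore hardly change a sign, and only the pseudocount and filter settings bear on it. Leaving set-aside genes out of the ER chaperone, cytochrome P450 and plastid protease lists, chosen after seeing the data, gave relative medians of 0.81, -0.013 and -1.60, against 0.89, 0.051 and -1.58. No paired analysis was possible because each group has 1 library. With no replicates, none could be left out, and counting error, 14.3 to 16.8% at 1 RPKM, is the only error that can be given.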

Other observations

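Enzyme families that modify small molecules were also higher in part. UDP-glycosyltransferases had 26 of 50 genes 2-fold higher and 2 lower, with UGT76B1 at 0.175 RPKM in WT air and 76.9 in WT R3 and UGT85A3 at 3.62 and 0.185. Cytochrome P450s lay at the median of all genes, with 49 of 117 higher and 14 lower, and held members at both ends, CYP82C2 at 0.0351 and 98.7 RPKM and CYP706A6 at 120 and 17.8. MATE efflux carriers had 19 of 36 higher and 3 lower.

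Vacuolar proteases and metacaspases, which take part in protein breakdown and cell death, had 7 of 16 higher and 0 lower. MC8 was at 0.120 and 10.4 RPKM, and RD21B at 6.26 and 47.6, while RD19 was at 394 and 216. Genes of storage lipids and phospholipases had 12 of 23 higher and 0 lower, with the lipase PLA2A at 6.52 and 89.7 RPKM and RD20, a caleosin of lipid droplets, at 19.4 and 195.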
